A study of Mus musculus with 6 samples.

Results

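The genes described here are the E2F transcription factor genes E2f1 to E2f8, together with Mybl2 and Foxm1, which act after them in the cell cycle. They were taken by gene name from the deposited tables, and all 10 were found there, each once, among 55802 listed genes. The RNA came from cultured neural stem cells isolated from the subventricular zone, the niche along the lateral ventricles, in adult C57BL/6 mice. In the SETD4 OE group (n = 3) the cells carried an adenovirus with SETD4 and green fluorescent protein for 24 h. In the control group (n = 3) the cells, labelled wild type, had received for the same time an adenovirus with green fluorescent protein alone, so both groups were virus-treated cultures. The comparison asks how a raised level of SETD4, a SET domain protein, alters the transcriptome of these cells. The sources used here do not give the viral promoter, the share of cells infected or whether replicates came from separate cultures, so p-values measure only the spread between these libraries.

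E2F proteins bind DNA as dimers with a DP partner and control genes needed for S phase. E2F1, E2F2 and E2F3 are mainly activators held in check by the retinoblastoma protein RB1. E2F4 and E2F5 mainly repress, together with the RB1 relatives p107 and p130, while E2F6 represses without a pocket protein and E2F7 and E2F8 are atypical repressors that bind DNA without DP. MYBL2 (B-MYB) and the forkhead protein FOXM1 join the MuvB complex to switch on genes of G2 and mitosis, and the same MuvB core joins p130, E2F4 and DP in the DREAM complex, which silences cell cycle genes in resting cells. Neural stem cells of the adult niche divide rarely and alternate between rest and proliferation.

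Values are FPKM, read numbers scaled to gene length and library size, which may be compared between genes. Recovered library totals ran from 14924273 to 16045138 reads in SETD4 OE and from 16007182 to 18078717 reads in control. Against the library sizes behind the deposited values, these totals differed by -5.04% to -3.69% in SETD4 OE and by 0.63% to 2.75% in control. The groups were thus not scaled to their recovered totals alike. Setd4 was at 296, 346 and 333 FPKM in SETD4 OE and at 0.952, 0.972 and 1.53 FPKM in control, as the labels state. The test called 3384 genes higher in SETD4 OE and 4406 lower. Scaling libraries to equal sums made this 4280 higher and 3349 lower, with the median of all tested genes shifted by 0.11 on the log2 scale. Limma-voom on recovered reads, which took the recovered totals as library sizes, called 4082 higher and 3872 lower. Control replicate 1 stood apart from the other controls in its share of mitochondrially encoded reads (3.78%, against 2.45% in each of the others), which lay near the 3.52% to 3.73% of SETD4 OE. All 12 neural stem cell markers were above the expression threshold, and all changed, 9 rising and 3 falling. Over all tested genes 60.0% changed, with 26.0% rising and 33.9% falling. Sox2 was at 190 ± 8.98 FPKM in SETD4 OE and 162 ± 13.7 FPKM in control, Gfap at 1388 ± 42.8 FPKM in SETD4 OE and 321 ± 14.6 FPKM in control, and Nes at 42.7 ± 5.39 FPKM in SETD4 OE and 117 ± 16.0 FPKM in control (SD, n = 3 each). The 5 endothelial markers summed to 0.600 to 0.799 FPKM in SETD4 OE and 0.560 to 0.681 FPKM in control, with Cldn5 at 0 in every library and reads of the other 4 in every library.

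Promoter sequence was read for part of the family and searched for short motifs. RefSeq windows of the assembly GRCm38.p6, each from 250 bases before to 50 bases after a transcript start, were read for 7 of the 10 genes (9 windows), and none for E2f4, E2f5 and Foxm1. The 4 forms of the E2F consensus (TTTCCCGC, TTTGGCGC, TTTCGCGC and TTTGCCGC) and its shorter cores (TCCCGC and TGGCGC, which lie within the first pair of forms) were searched on both strands, as was TTTGAA, the usual form of the cell cycle homology region that the MuvB subunit LIN54 binds. Stretches just before the start are printed, 5′ to 3′ on the gene's strand, for 5 genes with a match there, with all matches in capitals. A sixth gene, E2f2, is left out, because its match before a start belongs to a window whose start lies 8388 bases inside the first start that GENCODE gives. The stretches are chr13:29986064-29986213 (minus strand) for E2f3, chr12:16810815-16810964 (plus strand) for E2f6, chr10:110745189-110745438 (plus strand) for E2f7, chr7:48881597-48881746 (minus strand) for E2f8 and chr2:163054485-163054634 (plus strand) for Mybl2.
E2f3: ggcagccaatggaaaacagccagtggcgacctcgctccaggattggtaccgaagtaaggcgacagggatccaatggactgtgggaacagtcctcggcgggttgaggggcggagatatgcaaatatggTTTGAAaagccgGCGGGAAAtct
E2f6: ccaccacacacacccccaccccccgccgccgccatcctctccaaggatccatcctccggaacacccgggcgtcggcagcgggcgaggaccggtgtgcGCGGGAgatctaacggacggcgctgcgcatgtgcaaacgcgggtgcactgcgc
E2f7: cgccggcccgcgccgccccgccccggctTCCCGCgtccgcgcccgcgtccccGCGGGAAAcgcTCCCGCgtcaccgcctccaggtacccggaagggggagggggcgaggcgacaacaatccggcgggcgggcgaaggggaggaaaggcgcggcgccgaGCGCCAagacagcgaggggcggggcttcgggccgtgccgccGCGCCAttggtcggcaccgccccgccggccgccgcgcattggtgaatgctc
E2f8: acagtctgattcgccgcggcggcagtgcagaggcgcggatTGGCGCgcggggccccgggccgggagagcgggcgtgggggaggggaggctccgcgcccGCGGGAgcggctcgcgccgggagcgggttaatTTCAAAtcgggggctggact
Mybl2: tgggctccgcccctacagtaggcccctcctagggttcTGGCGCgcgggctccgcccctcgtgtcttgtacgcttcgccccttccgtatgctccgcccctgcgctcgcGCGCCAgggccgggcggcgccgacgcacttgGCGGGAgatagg

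Counting the base just before the start as -1, E2f3 held TTTGAA from -23 and the reverse strand form of TTTCCCGC from -11, 6 bases apart. E2f7 held the 8-letter form from -198 and cores from -222, -187, -92 and -51. Mybl2 held no 8-letter form, and its cores began at -113, -43 and -12. E2f8 held cores from -110 and -52 and TTTGAA, on the other strand, from -20. E2f6 held 1 core, from -53. E2f2 had its 8-letter match after the start, from 40, and TTTGAA from -31 in that second window. An 8-letter form was thus in a window of 3 of the 7 genes, against 4.92% of 9313 tested genes with a window. A core was in 6 of the 7, against 54.9% of those genes, and TTTGAA in 3 of the 7, against 13.6%. The E2f1 window began its transcript 466 bases inside the first start that GENCODE gives, so it does not hold the sequence before that start.

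All 10 genes were lower in SETD4 OE, with no overlap between the 3 libraries of each group, a pattern that 36.9% of all tested genes showed in the same direction and 66.0% in either direction. The expression filter, 1 FPKM averaged over all 6 libraries, kept 9 of the 10, and each of the 9 fell at an adjusted p under 0.05. In all tested genes, 33.9% fell and 60.0% changed in either direction by the same rule. E2f8 passed that filter through its control level alone. The genes did not fall alike. Mybl2, Foxm1, E2f1, E2f2, E2f7 and E2f8 were at 15.7% to 29.7% of their control mean, E2f3, E2f4 and E2f6 at 60.6% to 66.3%, and E2f5 at 86.2%. In bulk RNA, fewer cells of a type and less RNA per cell cannot be told apart.

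**Figure D1:**
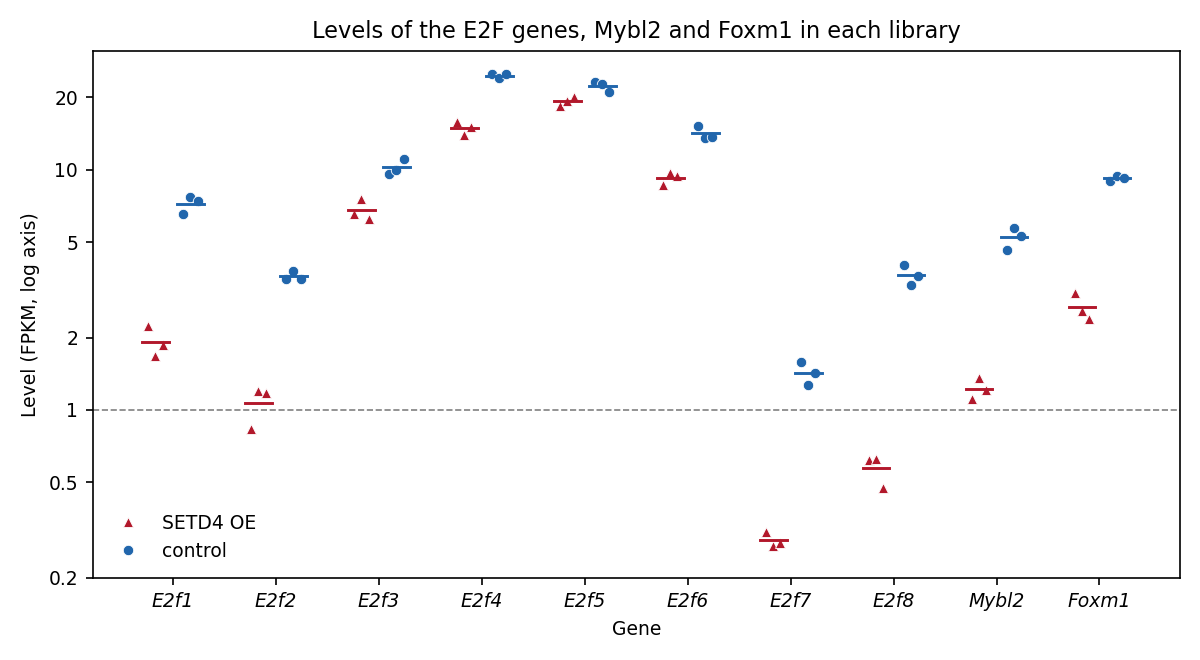
Levels in each library, in FPKM on a log axis, for the 10 genes, with SETD4 OE as triangles left of control as circles, group means as short lines and the expression filter of 1 FPKM dashed. Every SETD4 OE value lies below every control value of the same gene, narrowly for E2f5 (20.1 against 21.1 FPKM at the nearest points) and widely for E2f8 (0.627 against 3.32 FPKM).

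Among the activators, E2f1 and E2f2 fell further than E2f3. E2f1 (ENSMUSG00000027490; mm39 chromosome 2, 154401327 to 154411812, minus strand), the activator most closely tied to S phase entry and to apoptosis, was at 2.23, 1.67 and 1.87 FPKM in SETD4 OE, against 6.57, 7.68 and 7.38 FPKM in control. These values rest on 82 to 111 reads per SETD4 OE library and 332 to 426 per control library. Its highest SETD4 OE library was well under its lowest control, and the log2 fold change was -1.49 (SE 0.09, limma adjusted p = 1.75e-05). E2f2 (ENSMUSG00000018983; chromosome 4, 135899705 to 135923368, plus strand) was at 0.830, 1.20 and 1.18 FPKM in SETD4 OE and at 3.50, 3.77 and 3.52 FPKM in control. The first SETD4 OE library was lowest, with 64 reads, and the log2 fold change was -1.16 (SE 0.10, limma adjusted p = 6.55e-05). E2f3 (ENSMUSG00000016477; chromosome 13, 30090558 to 30170046, minus strand), which encodes a long and a short form from separate starts that these gene totals do not separate, was at 6.57, 7.55 and 6.24 FPKM in SETD4 OE and at 9.64, 9.95 and 11.1 FPKM in control. Its log2 fold change was -0.53 (SE 0.08, limma adjusted p = 1.35e-03), and its 95% interval, -0.73 to -0.33, did not reach those of E2f1 (-1.71 to -1.27) or E2f2 (-1.38 to -0.93). E2f3 was the most abundant activator in both groups.

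E2f4 and E2f5, of the resting state, were the most abundant E2F transcripts, and E2f5 had the smallest change of the tested members. E2f4 (ENSMUSG00000014859; chromosome 8, 106024295 to 106032002, plus strand), the E2F of the DREAM complex, was at 15.7, 14.0 and 15.1 FPKM in SETD4 OE and at 24.9, 24.1 and 24.9 FPKM in control. The groups were far apart relative to their spread, with a log2 fold change of -0.69 (SE 0.06, limma adjusted p = 6.84e-05). E2f5 (ENSMUSG00000027552; chromosome 3, 14643701 to 14671369, plus strand), its closest relative, was at 18.4, 19.3 and 20.1 FPKM in SETD4 OE and at 23.2, 22.7 and 21.1 FPKM in control. The nearest libraries of the groups were at 20.1 FPKM (SETD4 OE) and 21.1 FPKM (control), with an SD of 0.851 FPKM in SETD4 OE and 1.06 FPKM in control. The log2 fold change was -0.20 (SE 0.06, limma adjusted p = 0.0214). That call is fragile. It was lost without SETD4 OE replicate 1 (adjusted p = 0.0785), SETD4 OE replicate 2 (0.0509), control replicate 1 (0.0506) or control replicate 2 (0.0603), with equal sums (0.281), with quantile normalization (0.672) and in limma-voom on recovered reads (0.165). Without control replicate 1, 8 of the tested genes passed, all but E2f5. E2f5 also shares 26 bases with Rbis on the other strand, which was at 19.0 FPKM in SETD4 OE and 28.8 FPKM in control, and no strand setting was given. E2f6 (ENSMUSG00000057469; chromosome 12, 16860964 to 16889743, plus strand), part of a Polycomb complex that silences germline genes, was at 8.63, 9.68 and 9.45 FPKM in SETD4 OE, against 15.2, 13.6 and 13.7 FPKM in control. The log2 fold change of E2f6 was -0.56 (SE 0.07, limma adjusted p = 3.80e-04).

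The atypical repressors included E2f7, the scarcest member in both groups. E2f8 (ENSMUSG00000046179; chromosome 7, 48516177 to 48531344, minus strand) was at 0.617, 0.627 and 0.474 FPKM in SETD4 OE and at 4.01, 3.32 and 3.63 FPKM in control. This is 43 to 53 reads per SETD4 OE library, against 314 to 350 per control library. The log2 fold change was -1.56 (SE 0.09, limma adjusted p = 1.59e-05) on the log2(FPKM + 1) scale, which understates changes of low genes. It was -2.48 with a pseudocount of 0.1 and -2.59 in limma-voom on recovered reads, further down than any other tested member in each. E2f7 (ENSMUSG00000020185; chromosome 10, 110581300 to 110623245, plus strand) missed the filter with a mean of 0.859 FPKM over all libraries. It was at 0.309, 0.271 and 0.280 FPKM in SETD4 OE, or 38 to 44 reads, against 1.59, 1.27 and 1.43 FPKM in control, or 202 to 229 reads. With no filter on low values its log2 fold change was -0.92 (SE 0.09, limma adjusted p = 9.55e-04). The members nearest to the filter were thus E2f7 below it and E2f8, with a mean of 2.11 FPKM, above it.

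Mybl2 and Foxm1, the factors of the later cell cycle, fell about as far as E2f1. Mybl2 (ENSMUSG00000017861; chromosome 2, 162896607 to 162926608, plus strand), itself a known E2F target, was at 1.11, 1.36 and 1.21 FPKM in SETD4 OE and at 4.65, 5.72 and 5.31 FPKM in control. The log2 fold change was -1.48 (SE 0.09, limma adjusted p = 1.64e-05), and -2.01 in limma-voom on recovered reads. Foxm1 (ENSMUSG00000001517; chromosome 6, 128339930 to 128353109, plus strand), which drives mitotic genes, was at 3.06, 2.58 and 2.40 FPKM in SETD4 OE and at 8.94, 9.40 and 9.25 FPKM in control. Its log2 fold change was -1.47 (SE 0.08, limma adjusted p = 9.77e-06). Foxm1 overlaps Tex52 by 691 bases on its own strand, at 0.377 FPKM in SETD4 OE and 0.214 FPKM in control, levels far under its own. E2f3 overlaps Gm11365 (0.164 FPKM in SETD4 OE and 0.214 FPKM in control), E2f8 overlaps Gm2788 (0.00848 and 0.0180 FPKM in those groups), and E2f7 and Mybl2 overlap 1700020G17Rik and Mir7003, both listed at 0, so overlapping genes had few reads beside these members. Changes of all tested genes were ranked on the log2(FPKM + 1) scale, which understates those of low genes. Among them, 1.02% lay below that of E2f8, 1.29% below E2f1, 1.35% below Mybl2, 1.39% below Foxm1 and 3.34% below E2f2, but 11.4% below E2f4, 16.0% below E2f6, 17.5% below E2f3 and 37.6% below E2f5.

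**Figure D2:**
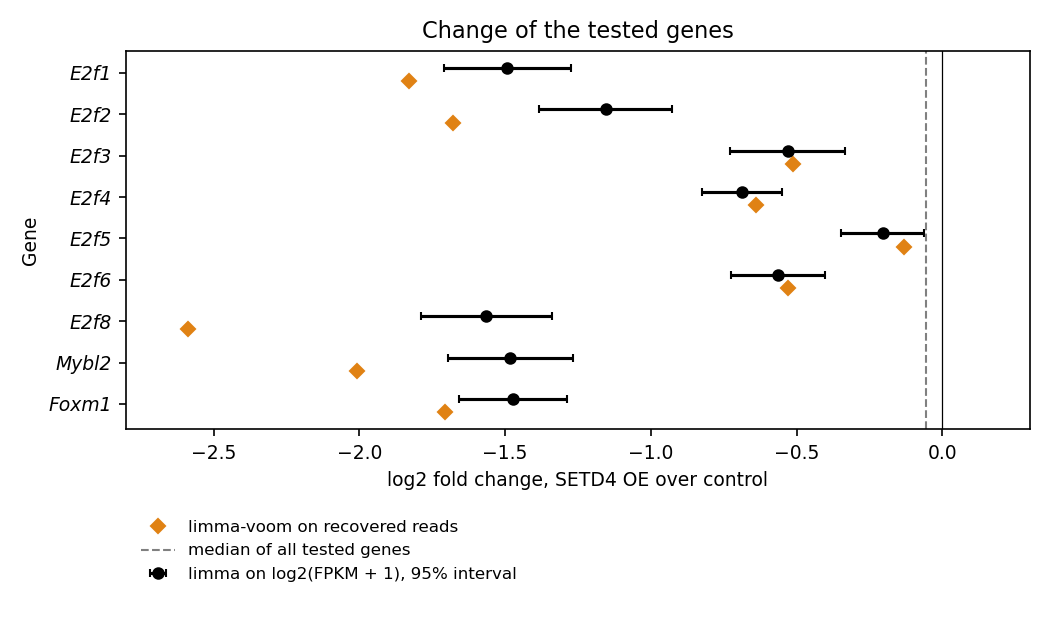
Log2 fold changes of SETD4 OE over control for the 9 tested genes, as black circles with 95% intervals on the log2(FPKM + 1) scale and as orange diamonds from limma-voom on recovered reads; the dashed line is the median of all tested genes (-0.06). E2f1, E2f2, E2f8, Mybl2 and Foxm1 lie below -1 by both methods, while E2f3 to E2f6 lie above it.

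Because the genes fell unequally, the make-up of the family shifted. The summed level of E2f1 to E2f8 was 53.3, 54.3 and 54.7 FPKM in SETD4 OE, against 88.6, 86.4 and 86.8 FPKM in control. E2f5 held 35.6 ± 1.12% of that sum in SETD4 OE and 25.6 ± 1.08% in control (SD, n = 3 each), the only single member whose share was larger in every SETD4 OE library. The shares of E2f4 (27.7 ± 1.85% in SETD4 OE and 28.3 ± 0.406% in control), E2f3 (12.6 ± 1.26% in SETD4 OE and 11.7 ± 0.976% in control) and E2f6 (17.1 ± 0.830% in SETD4 OE and 16.2 ± 0.814% in control) overlapped between the groups. E2f1 held 3.56 ± 0.565% in SETD4 OE and 8.27 ± 0.763% in control. E2f7 and E2f8 together held 1.59 ± 0.188% in SETD4 OE and 5.82 ± 0.50% in control. The repressors E2f4 to E2f6 together made up 79.2% to 81.6% of the sum in SETD4 OE and 68.8% to 71.4% in control. These shares are given as a description, since they are sums over genes chosen by name.

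**Figure D3:**
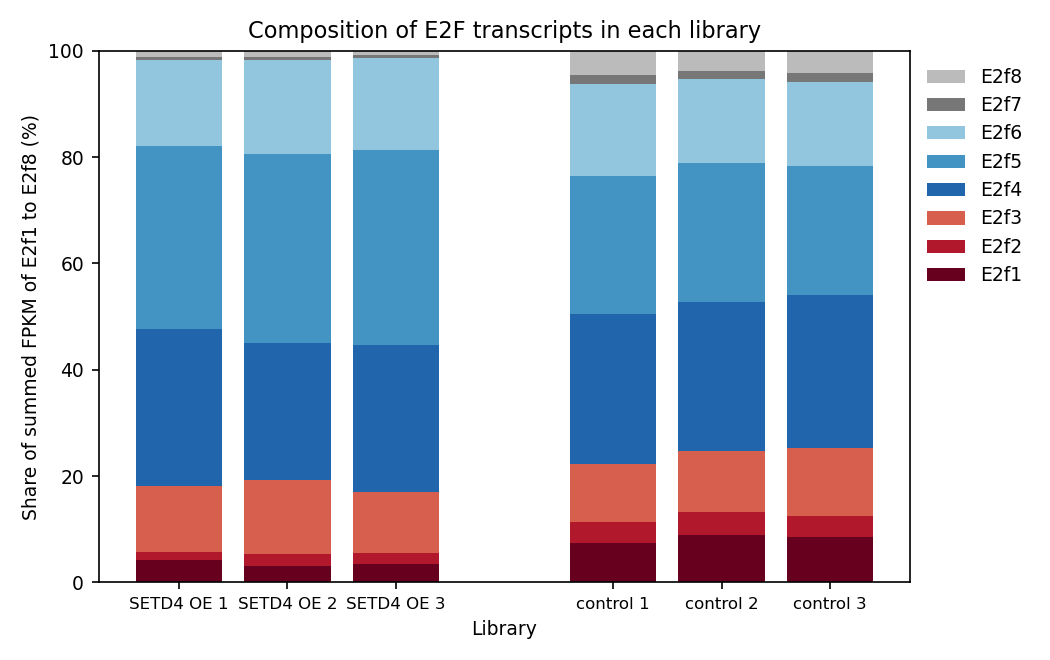
Share of each E2F gene in the summed FPKM of E2f1 to E2f8 (vertical axis, percent) in each of the 6 libraries, SETD4 OE left of control. The blue bands (E2f4, E2f5 and E2f6) fill 79.2% to 81.6% of each SETD4 OE bar and 68.8% to 71.4% of each control bar, with E2f5 the band that widens.

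The order of levels differed between the groups. In SETD4 OE it ran E2f5, E2f4, E2f6, E2f3, Foxm1, E2f1, Mybl2, E2f2, E2f8 and E2f7, and in control E2f4 came before E2f5 and E2f8 before E2f2. E2f5 and E2f4 did not overlap in either group, so E2f5 lay above E2f4 in every SETD4 OE library and below it in every control library. The libraries overlapped between neighbours for Mybl2 and E2f2 in SETD4 OE and for E2f8 and E2f2 in control, and those pairs cannot be ordered.

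The partners and pocket proteins that E2Fs act with went in both directions. Tfdp1, the main DP partner, was at 24.2, 25.0 and 25.1 FPKM in SETD4 OE, against 48.9, 48.7 and 48.1 FPKM in control, with a log2 fold change of -0.94 (SE 0.05, limma adjusted p = 7.87e-06). Tfdp2 was at 5.42 ± 0.426 FPKM in SETD4 OE and 4.86 ± 0.512 FPKM in control and did not pass (limma adjusted p = 0.216; 0.0373 in limma-voom). Rbl1, which encodes p107 and is itself an E2F target, was at 1.86, 2.24 and 1.97 FPKM in SETD4 OE and at 7.61, 6.86 and 7.56 FPKM in control. Rbl2, which encodes the p130 of resting cells, was at 9.81, 10.6 and 9.55 FPKM in SETD4 OE and at 5.86, 5.27 and 5.08 FPKM in control. Rbl1 fell by 1.46 on the log2 scale (limma adjusted p = 8.66e-06) while Rbl2 rose by 0.78 (limma adjusted p = 8.77e-05), so that Rbl1 was the higher of the pair in every control library and Rbl2 in every SETD4 OE library. Rb1 was at 19.2 ± 2.11 FPKM in SETD4 OE and 15.1 ± 1.58 FPKM in control (log2 fold change 0.33, SE 0.10, limma adjusted p = 0.0232), a call lost without SETD4 OE replicate 2 (adjusted p = 0.0631), control replicate 2 (0.0698) or control replicate 3 (0.0691). With no filter on low values, and with the replicate number as a block, 1 pocket protein gene was called higher, against 2 in the main test.

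Of the 5 MuvB core genes, 4 fell and 1 rose, with smaller changes than Mybl2 or Foxm1. By the same test 33.9% of all tested genes fell and 26.0% rose. Lin9, which holds B-MYB in the complex, was at 1.24 ± 0.254 FPKM in SETD4 OE and 2.28 ± 0.0535 FPKM in control (log2 fold change -0.56). Lin54, the DNA-binding subunit, had a log2 fold change of -0.46 and the histone-binding Rbbp4 one of -0.34. Lin37, needed for repression by DREAM, had one of -0.24 (limma adjusted p = 0.0203), which was lost without SETD4 OE replicate 3 (adjusted p = 0.0586), control replicate 2 (0.0522) or control replicate 3 (0.0520), with equal sums (0.242), with quantile normalization (0.144) and in limma-voom (0.184). Lin52, whose phosphorylation favours DREAM assembly, was at 7.73 ± 1.01 FPKM in SETD4 OE and 5.55 ± 0.438 FPKM in control and rose by 0.41. Of the other MYB genes, Mybl1 (A-MYB) fell by 0.74 on the log2 scale (3.93 ± 0.603 FPKM in SETD4 OE and 7.20 ± 0.755 FPKM in control), and Myb was under the filter at 0.111 ± 0.0380 FPKM in SETD4 OE and 0.199 ± 0.0558 FPKM in control.

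Genes that E2Fs activate for S phase fell in 29 of 29 tested cases out of 30 listed, with a median log2 fold change of -1.55. Over all tested genes 33.9% fell, and the median was -0.06. Cdc6, Mcm10, Orc1 and Pole, 4 of those 29, had a SETD4 OE mean under 1 FPKM and so passed the filter through their control level, as did 1 of the G2 and mitosis genes, Cdc25c. Uhrf1, which couples DNA methylation to replication, was at 4.22, 4.02 and 4.51 FPKM in SETD4 OE and at 23.9, 27.8 and 27.6 FPKM in control. Rrm2, of ribonucleotide reductase, had a log2 fold change of -2.34 and the helicase gene Mcm5 one of -2.29. The member under the filter, Fen1, a flap endonuclease, was at 0.534 ± 0.0453 FPKM in SETD4 OE and 1.15 ± 0.288 FPKM in control. The 26 genes of G2 and mitosis that B-MYB with MuvB or FOXM1 bind were all tested and all fell, with a median of -1.51. Aurkb, a kinase of chromosome segregation, had a log2 fold change of -2.27, the ubiquitin enzyme gene Ube2c one of -2.10 and the topoisomerase gene Top2a one of -2.06. Cyclin and kinase genes that act on RB1 in G1 split. The G1 cyclin gene Ccnd1 was at 16.8, 18.4 and 16.8 FPKM in SETD4 OE and at 247, 270 and 266 FPKM in control, a log2 fold change of -3.84. Ccnd2 and Ccnd3 fell by 2.08 and 0.53 on the log2 scale, Cdk4 did not pass (108.9 ± 7.91 FPKM in SETD4 OE and 125.9 ± 13.5 FPKM in control), and Cdk6 rose by 0.37 (limma adjusted p = 0.0179; lost without SETD4 OE replicate 1 at 0.0504, SETD4 OE replicate 2 at 0.0583, control replicate 2 at 0.0583 or control replicate 3 at 0.0596). The Cdk6 call was also lost with no filter on low values and with quantile normalization. Cdk6 had a control mean of 0.950 FPKM, under the filter, and so passed it through its SETD4 OE level.

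**Figure D4:**
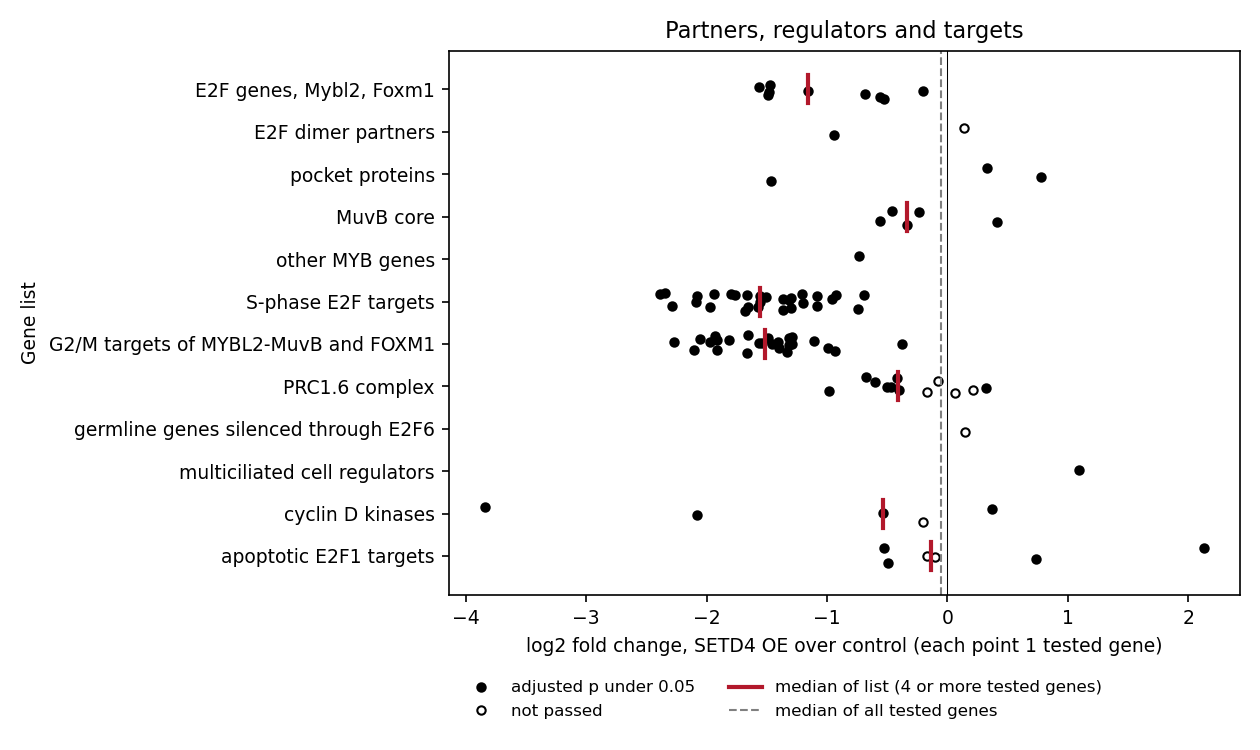
Log2 fold changes of SETD4 OE over control for every tested gene of each list, filled where the adjusted p was under 0.05, with list medians in red for lists of 4 or more tested genes and the median of all tested genes dashed. S-phase and G2/M targets lie wholly below 0, with medians of -1.55 and -1.51, while the dimer partners, pocket proteins, MuvB core and PRC1.6 genes lie on both sides of 0.

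Of 12 tested genes of PRC1.6, the Polycomb complex of E2F6, 7 fell and 1 rose, with a median log2 fold change of -0.41. Over all tested genes 33.9% fell, 26.0% rose and 60.0% changed in either direction, and the median was -0.06. Rybp fell to 3.37 ± 0.441 FPKM in SETD4 OE, against 7.62 ± 0.314 FPKM in control, the deacetylase gene Hdac1 had a log2 fold change of -0.68 and the Rybp relative Yaf2 one of -0.60. Ring1, a ubiquitin ligase of Polycomb, rose by 0.32 (limma adjusted p = 5.25e-03). Of 4 germline genes that E2F6 is known to keep silent in mouse cells, none passed and only Stag3 was tested. Stag3, a meiotic cohesin subunit, was at 1.19 ± 0.143 FPKM in SETD4 OE and 0.979 ± 0.0200 FPKM in control (limma adjusted p = 0.244). Its control mean was under the filter, so Stag3 passed it through its SETD4 OE level. The sperm ADP/ATP carrier gene Slc25a31 had 2, 1 and 1 reads in SETD4 OE and 0 in each control library, the meiotic cohesin gene Smc1b 7, 5 and 2 reads in SETD4 OE and 9, 11 and 9 in control, and Tuba3a none in any library.

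E2F4 and E2F5 also serve, with GEMC1 and multicilin, to switch on centriole genes in multiciliated cells, the fate of the ependyma beside this niche. Of 7 regulators of that fate only Foxj1, the master gene of motile cilia, was above the filter, and it rose to 35.0 ± 5.11 FPKM in SETD4 OE, against 15.8 ± 2.10 FPKM in control (log2 fold change 1.09, SE 0.13, limma adjusted p = 3.04e-04). The GEMC1 gene Gmnc had 50, 49 and 47 reads in SETD4 OE and 16, 19 and 15 in control, and Trp73, which encodes p73, had 31, 31 and 27 in SETD4 OE and 14, 10 and 9 in control. The multicilin gene Mcidas was at 0.0179 ± 0.0155 FPKM in SETD4 OE and 0.00797 ± 0.0138 FPKM in control, Deup1 at 0.0769 ± 0.0765 FPKM in SETD4 OE and 0.0430 ± 0.0122 FPKM in control, and Cdc20b, at 0 in SETD4 OE, at 0.0115 ± 0.0199 FPKM in control. Ccno, a cyclin of centriole amplification, lay the other way, at 0.521 ± 0.0585 FPKM in SETD4 OE and 0.696 ± 0.0157 FPKM in control.

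Markers of other cell types moved beside the fall of the E2F genes, and their part in it was not tested. For the counts that follow, 26.0% of all tested genes were called higher in SETD4 OE and 33.9% lower. Without overlap between the groups, 29.1% of all tested genes lay higher in SETD4 OE and 36.9% lower. Those shares cover genes above the filter only. The 6 astrocyte markers summed to 674 to 683 FPKM in SETD4 OE and 332 to 368 FPKM in control, with 4 of 5 tested markers higher. The 5 ependymal markers summed to 40.1 to 51.9 FPKM in SETD4 OE and 18.0 to 21.2 FPKM in control, with all 4 tested markers higher. Among them Tmem212, with a control mean of 0.605 FPKM, passed the filter through its SETD4 OE level. The 7 markers of the oligodendrocyte lineage summed to 152 to 168 FPKM in SETD4 OE and 317 to 373 FPKM in control, although 5 of 6 tested markers rose. The most abundant of them, Olig2, fell, at 128 ± 7.76 FPKM in SETD4 OE and 339 ± 32.2 FPKM in control. The 8 markers of microglia summed to 5.17 to 6.42 FPKM in SETD4 OE and 6.58 to 10.2 FPKM in control. Their only tested gene, Cd68, fell (3.75 ± 0.548 FPKM in SETD4 OE and 6.94 ± 1.95 FPKM in control), whereas P2ry12 (1.00 ± 0.210 FPKM in SETD4 OE and 0.681 ± 0.10 FPKM in control) and C1qa (0.625 ± 0.172 FPKM in SETD4 OE and 0.129 ± 0.174 FPKM in control) lay wholly higher in SETD4 OE. C1qa rests on 10, 13 and 8 reads in SETD4 OE and 0, 6 and 1 in control. Aif1, Cx3cr1, Tmem119, Csf1r and Ptprc were near 0 and overlapped between the groups. Markers of neuroblasts and neurons summed to 40.6 to 47.4 FPKM in SETD4 OE and 36.5 to 40.9 FPKM in control, most of it Map2, which did not pass. Tubb3 was called higher and Stmn2 lower (1.29 ± 0.108 FPKM in SETD4 OE and 2.48 ± 0.520 FPKM in control). Under the filter, Dcx, Rbfox3 and Syt1 lay wholly higher in SETD4 OE, and Snap25 overlapped. Markers of mural cells and fibroblasts summed to 20.2 to 24.7 FPKM in SETD4 OE and 31.8 to 36.3 FPKM in control. In that last list Acta2 fell, at 11.6 ± 1.62 FPKM in SETD4 OE and 30.9 ± 2.48 FPKM in control, while the other 5 of 6 markers lay wholly higher in SETD4 OE and 3 of them passed the test. Of those 3, Rgs5 and Col1a1 had control means under 1 FPKM (0.824 and 0.752 FPKM) and so passed the filter through their SETD4 OE level.

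Profiles most like each tested member were sought over the 6 libraries by the Euclidean distance between log2(FPKM + 1) values, each centred on its own mean, among up to 7469 other coding genes that averaged 5 FPKM or more. With 2 well-separated groups, this measure mainly finds genes with a like difference between groups on the log2(FPKM + 1) scale. That scale understates changes of low genes, so the neighbours of a low member can differ less in ratio than it does. E2f8 was at a mean of 0.57 FPKM in SETD4 OE and 3.65 FPKM in control, and its neighbour Mki67 at 8.18 and 26.8 FPKM in those groups. For E2f8 the nearest were Mki67 (distance 0.0923), Smc2 (0.099) and Spred3 (0.166). For Mybl2, Ran (0.119) and Rfc4 (0.121) were among the 3 nearest, and for Foxm1 they were Lpo (0.130), Spred3 (0.138) and Slco3a1 (0.139). E2f1 was nearest to Foxm1 itself (0.159), then Rgs16 (0.161) and Eva1c (0.178). E2f2 was nearest to Pcbp3 (0.0757), Cdkn2aipnl (0.108) and Ddx21 (0.131). The remaining members had other neighbours, Cnih1, Colgalt1 and Mmadhc for E2f3 (0.0826 to 0.106), Wdr36, Trappc4 and Cers5 for E2f4 (0.0734 to 0.0902), Drg2, Errfi1 and Ccz1 for E2f5 (0.0385 to 0.0516) and Zdhhc5, Stt3a and Nudt5 for E2f6 (0.0544 to 0.0646).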

How the data were processed

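The authors deposited a table per group with a value per gene and library, gene coordinates and gene length, per the file headers. The unit was not named in the headers and was read from the values as FPKM: multiplied by gene length, 100% of the deposited values came out as whole reads (tolerance 0.05), so that reads per gene could be recovered. Alignment used HISAT2 2.0.5 and the build mm39, per the submitters' processing notes; the sources used here do not give the counting tool, annotation or strand setting.

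The test ran on log2(FPKM + 1) for the 12994 genes averaging 1 FPKM or more over 6 libraries, using limma 3.58.1 under R 4.3.3 (mean-variance trend, two-sided, no replicate block, Benjamini-Hochberg over all tested genes, threshold 0.05). The step was tested on simulated data. Libraries of a group differed beyond sampling noise (chi-square per degree of freedom 3.68 to 14.8), so no pair was counted as 1 library; this does not tell separate cultures from repeat preparations. Members and lists were chosen with earlier results of these data known; lists come from textbook knowledge. Named were all members, partners, pocket, MuvB, MYB, germline and multiciliated genes, up to 3 called genes of the largest change from other lists, and the 3 nearest profiles; further list genes, such as Ring1, Ccnd3, Cdk4, Cdk6, Fen1 and the cell type markers, were picked after their values were seen. Some genes that the rule would name are not reported here. Shorter E2F cores were added after the 8-letter forms had been searched. Alternatives were other filters, pseudocount and scalings, a block, limma-voom and each library left out. RefSeq sequences are of GRCm38.p6, and no coordinates were converted. Figures were drawn with matplotlib 3.10.9.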

Additional observations from a re-analysis of the deposited data

How the results depend on the processing

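No direction reversed for any of the 9 tested members or Setd4 under the 15 alternatives, and for E2f1, E2f2, E2f3, E2f4, E2f6, E2f8, Mybl2 and Foxm1 the call held in each alternative that tested them. E2f5 passed in 8 of 16 settings, with an adjusted p of 0.0159 to 0.672. With the filter at 5 FPKM, 5 members were tested and all 5 called lower, and of all genes 1881 were higher; the same filter left 0 pocket proteins, 2 MuvB genes and 15 S-phase targets called lower and 0 cyclin D kinase genes called higher, because fewer genes were tested. With no filter, 1 pocket protein, 3 multiciliated regulators and 0 cyclin D kinase genes were called higher. In PRC1.6, 2 genes were called higher with equal sums, 3 with quantile normalization and 2 with limma-voom; limma-voom called 1 dimer partner higher, and quantile normalization called 0 cyclin D kinase genes higher. For these shifts of scaling and model the cause was not tested. Leaving out 1 library gave 1 to 2 pocket proteins, 1 to 2 PRC1.6 genes and 0 to 1 cyclin D kinase genes called higher. The replicate numbers did not pair the libraries (correlations of same-numbered deviations -0.07, -0.23 and 0.08, with 1 of 6 libraries correlating best with its own number). With the replicate number as a block, 6941 genes were called, 8 members passed (E2f5 at an adjusted p of 0.0752) and 1 pocket protein was higher. Members with few reads, such as E2f7 and E2f8 in SETD4 OE, have the least certain fold changes.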

Other observations

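Of 6 tested targets through which E2F1 is known to promote apoptosis, 2 rose, 2 fell and 2 did not pass. Over all tested genes, 26.0% rose and 33.9% fell by the same test, so a mixed result is near the general share. Bcl2l11, which encodes the death activator BIM, was at 12.1, 12.3 and 11.8 FPKM in SETD4 OE and at 2.34, 1.62 and 2.06 FPKM in control (log2 fold change 2.13, SE 0.09, limma adjusted p = 5.07e-06). Bbc3, which encodes PUMA, rose by 0.74 on the log2 scale. Apaf1, of the apoptosome, and Pmaip1, which encodes NOXA, did not pass, at 6.09 ± 0.629 and 8.11 ± 0.859 FPKM in SETD4 OE and at 6.97 ± 0.391 and 8.76 ± 0.169 FPKM in control.

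An 8-letter E2F form was in a promoter window of 228 of 3254 genes that fell in SETD4 OE (7.01%), of 83 of 2517 that rose (3.30%) and of 147 of 3542 that did not pass (4.15%). For the shorter cores the shares were 58.7% of genes that fell, 51.5% of those that rose and 53.8% of those that did not pass, and for TTTGAA 14.7%, 12.6% and 13.2%, again of genes that fell, rose and did not pass. These are counts of letters in windows, given as a description.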
